A study of Arabidopsis thaliana with 18 samples.

Results

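Copper miRNAs are small RNAs that plants make when copper is scarce. The transcription factor SPL7 binds GTAC motifs in the promoters of their genes and switches them on, and the miRNAs then guide ARGONAUTE 1 (AGO1) to cut the mRNAs of copper proteins that a cell can do without. Their known targets are laccases, the copper oxidases that polymerise lignin in the cell wall, and plantacyanin, a small blue copper protein. From a copper miRNA hairpin 2 mature arms can be cut, one of which usually stays in AGO1 as the guide while the other is discarded as the passenger strand.

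The 5 copper miRNAs described here were the rows named miR397a, miR397b, miR408-3p, miR408-5p and miR857, out of 422 miRNA rows in the deposited count table. They come from 4 genes, and both miR408 arms come from the same hairpin. The seedlings were 7-day-old Arabidopsis thaliana of the common laboratory accession Col-0, with no transgene or mutation. Controls were compared with seedlings held at 37°C for 1 h (heat stress, HS) and with seedlings returned to 22°C for 2 h after that hour (recovery). Each condition was sequenced as total RNA and as RNA pulled down with an antibody to the endogenous AGO1 protein (AGO1-IP, from 1 g of seedlings), with 3 biological replicates in each of the 6 groups, 18 libraries in all. The question was whether a short HS changes the level of these miRNAs or their loading into AGO1. Whole seedlings were used, so fewer cells of a type and less RNA per cell cannot be told apart.

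The libraries held 321918 to 1059362 miRNA reads in total RNA and 1374777 to 5745126 in AGO1-IP. Copper miRNAs took 0.198% to 0.933% of the miRNA reads of a library, with the highest share in total RNA recovery replicate 1. The miR156 and miR157 rows took 20.0% to 34.1% of the reads in total RNA and 39.2% to 62.8% in AGO1-IP. The 39.2% was that of AGO1-IP recovery replicate 1, which stood apart on the first principal component, while the remaining AGO1-IP libraries began at 53.0%. The pull-down was compared with known AGO1 biology. miR168a-5p, the guide that AGO1 uses against its own mRNA, was higher in AGO1-IP in control seedlings (log2 fold change 1.67 ± 0.26, SE, n = 3 per group, adjusted p = 1.17e-05, edgeR). Its share of the miRNA reads differed less, at 8103 ± 903 per 1000000 in total RNA and 9210 ± 1610 in AGO1-IP (SD), so this change depends on scaling. miR390a-5p, the guide of AGO7, stood at −0.64 ± 0.47 in control (adjusted p = 0.233, edgeR). It was at −1.50 ± 0.48 in HS (adjusted p = 0.00919, edgeR) and −0.68 ± 0.47 in recovery (adjusted p = 0.222, edgeR). The share of miR390a-5p differed more, so these changes depend on scaling as well. In control it was 4476 ± 2098 per 1000000 in total RNA and 1000 ± 44 in AGO1-IP (SD). In HS it was 7568 ± 5088 and 875 ± 145, and in recovery 4791 ± 3069 and 1177 ± 379.

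The mature sequences are shown because the first base bears on sorting into AGO1 and the seed on the targets. They are read from the TAIR10.1 genome at the positions of the RefSeq annotation, 5′ to 3′, with the seed (bases 2 to 8) in capitals.
miR397a: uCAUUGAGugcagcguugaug
miR397b: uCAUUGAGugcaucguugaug
miR408-3p: aUGCACUGccucuucccuggc
miR408-5p: aCAGGGAAcaagcagagcaug
miR857: uUUUGUAUguugaagguguau
miR397a (chr4:2625960-2625980, plus strand) and miR397b (chr4:7878730-7878750, minus strand) shared the seed CAUUGAG and differed by 1 substitution, G13U, counted from the 5′ end of miR397a. None of the other miRNAs of the table had the seed of miR408-3p (chr2:19319933-19319953, plus), miR408-5p (chr2:19319866-19319886, plus) or miR857 (chr4:7878198-7878218, minus). Each of the 5 sequences had 1 exact site in the genome, but a read of miR397a or miR397b with an error at base 13 matches the other as well. The 3 members from chromosome 4 begin with U, the base that AGO1 prefers, and both miR408 arms begin with A.

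The MIR408 span from the first base of miR408-5p to the last base of miR408-3p shows how its 2 arms lie, with the arms in capitals (chr2:19319866-19319953, plus strand).
MIR408: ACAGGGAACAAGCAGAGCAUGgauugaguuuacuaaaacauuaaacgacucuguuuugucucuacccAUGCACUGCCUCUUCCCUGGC
The arms are 46 bases apart. In the minimum free energy fold of this span, 15 of the 21 bases of miR408-5p paired with the miR408-3p arm. MIR408 lies on the strand opposite to AT2G47020 and overlaps it, and MIR397a in the same way overlaps AT4G05110. Whether the counting used strand is not given in the sources used here, so reads of an antisense partner cannot be told apart there.

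MIR857 (AT4G13554) and MIR397b (AT4G13555) are neighbours on the minus strand of chromosome 4, with 90 bases between the annotated genes and 511 bases between the mature miRNAs. In the window from 250 bases before to 50 bases after each annotated gene start, the motif GTAC (4 letters, its own reverse complement, so 1 search covers both strands) occurred 4 times in MIR408, 4 times in MIR397b, 3 times in MIR397a and 0 times in MIR857. Of 33054 annotated genes, 39.3% held at least 1 GTAC in the same window, 2.05% at least 3 and 0.43% at least 4. The MIR408 window (chr2:19319564-19319863, plus strand) and the MIR397b window (chr4:7878711-7879010, minus strand) are printed because they carry the most motifs, with GTAC in capitals.
MIR408: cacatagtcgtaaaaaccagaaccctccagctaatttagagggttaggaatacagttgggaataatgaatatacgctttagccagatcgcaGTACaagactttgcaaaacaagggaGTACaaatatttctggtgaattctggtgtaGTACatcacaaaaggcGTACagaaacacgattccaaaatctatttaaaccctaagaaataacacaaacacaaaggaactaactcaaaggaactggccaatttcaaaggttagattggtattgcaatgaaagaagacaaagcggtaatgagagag
MIR397b: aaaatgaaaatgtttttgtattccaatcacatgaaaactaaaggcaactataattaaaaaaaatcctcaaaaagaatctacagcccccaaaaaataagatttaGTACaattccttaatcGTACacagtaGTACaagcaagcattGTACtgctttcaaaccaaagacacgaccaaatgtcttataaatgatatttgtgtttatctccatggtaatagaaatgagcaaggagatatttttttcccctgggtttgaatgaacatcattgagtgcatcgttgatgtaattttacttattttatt
A motif match is a description of the sequence and not a measured binding site. The annotated start of these genes is that of the hairpin, and the MIR857 window runs into MIR397b.

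The target sites show how the guides pair with copper protein genes from a preset list of known targets. The best ungapped site in each listed gene was taken, with no limit on mismatches, and other genes were not searched. A site of each guide is printed 5′ to 3′ with the bases that do not form a Watson-Crick pair in capitals, and all lie in coding sequence.
miR397a on LAC4: AGucaacgcugcacuUaauga
miR397b on LAC4: AGucaacgCugcacuUaauga
miR408-3p on plantacyanin: CcAagggaagaggcagugcau
miR857 on LAC7: aCacaccuucaacGuacaaaa
The LAC4 site (AT2G38080, chr2:15936120-15936140, plus strand) had 1 mismatch and 2 G:U pairs with miR397a, and 2 mismatches with miR397b, the added one being opposite base 13. LAC2 and LAC17, other laccases of the list, showed the same gain of 1 mismatch. The plantacyanin site (AT2G02850, chr2:827696-827716, minus strand) had 2 mismatches with miR408-3p, against 3 or 4 in its laccase sites of LAC3, LAC12 and LAC13. LAC7 (AT3G09220) had 1 mismatch and 1 G:U pair with miR857, across an exon junction.

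In total RNA, miR408-3p was the most abundant of the 5 and miR857 the least. Levels are given as CPM (counts per 1000000 miRNA reads) with no further scaling, in the order of replicates 1, 2 and 3. miR408-3p, the guide against plantacyanin, was at 4339.7, 2384 and 1574 CPM in control, 2569, 1723 and 1363 in HS and 6500.4, 1440.5 and 1786 in recovery. Replicate 1 was the highest library in each of these groups, and the recovery mean of 3242 ± 2827 (SD, n = 3) rested on it. miR408-5p, the opposite arm, was at 987, 555 and 784 CPM in control, 795, 492 and 583 in HS and 1969, 559.96 and 748 in recovery. The same recovery library was again the highest, and the groups overlapped.

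miR397b was the more abundant of the laccase guides that share a seed. It was at 655, 688 and 325 CPM in control, 475, 465 and 385 in HS and 580.3, 529 and 415 in recovery. miR397a was at 377, 302 and 239 CPM in control, 221, 219 and 229 in HS and 253, 325 and 195 in recovery. All 3 HS libraries of miR397a lay below all 3 controls, the nearest being 229 and 239 CPM. miR857, the LAC7 guide, had 11, 24 and 25 reads in control, 0, 12 and 9 in HS and 11, 28 and 10 in recovery. Its 0 reads in HS replicate 1 allow up to 9.32 CPM (a floor of 3 counts, counting error only), below its controls of 22.7 to 28.6 CPM. The other HS libraries stood at 24.4 and 12.2 CPM, so HS and control overlapped.

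In AGO1-IP the order of the miR408 arms turned round. miR408-5p was at 2530.1, 1527 and 1850.3 CPM in control, 1596, 1057 and 1239 in HS and 1488, 1412 and 1205 in recovery. miR408-3p was at 1829, 729 and 921 CPM in control, 523, 481 and 602 in HS and 1795, 724 and 762 in recovery. The 5p arm was the higher in 8 of the 9 AGO1-IP libraries, and AGO1-IP recovery replicate 1 was the exception. miR397a was at 390.2, 208 and 289 CPM in control, 226, 181 and 245 in HS and 297, 259 and 168 in recovery. miR397b was at 335, 207 and 228 CPM in control, 172, 193 and 302 in HS and 325, 286 and 251 in recovery. These seed partners overlapped in every condition of AGO1-IP, whereas in total RNA they overlapped only in control. miR857 had more reads in the deeper AGO1-IP libraries, with 221, 212 and 71 in control, 58, 304 and 40 in HS and 33, 228 and 112 in recovery, and spread over a wide range in each group.

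**Figure D1:**
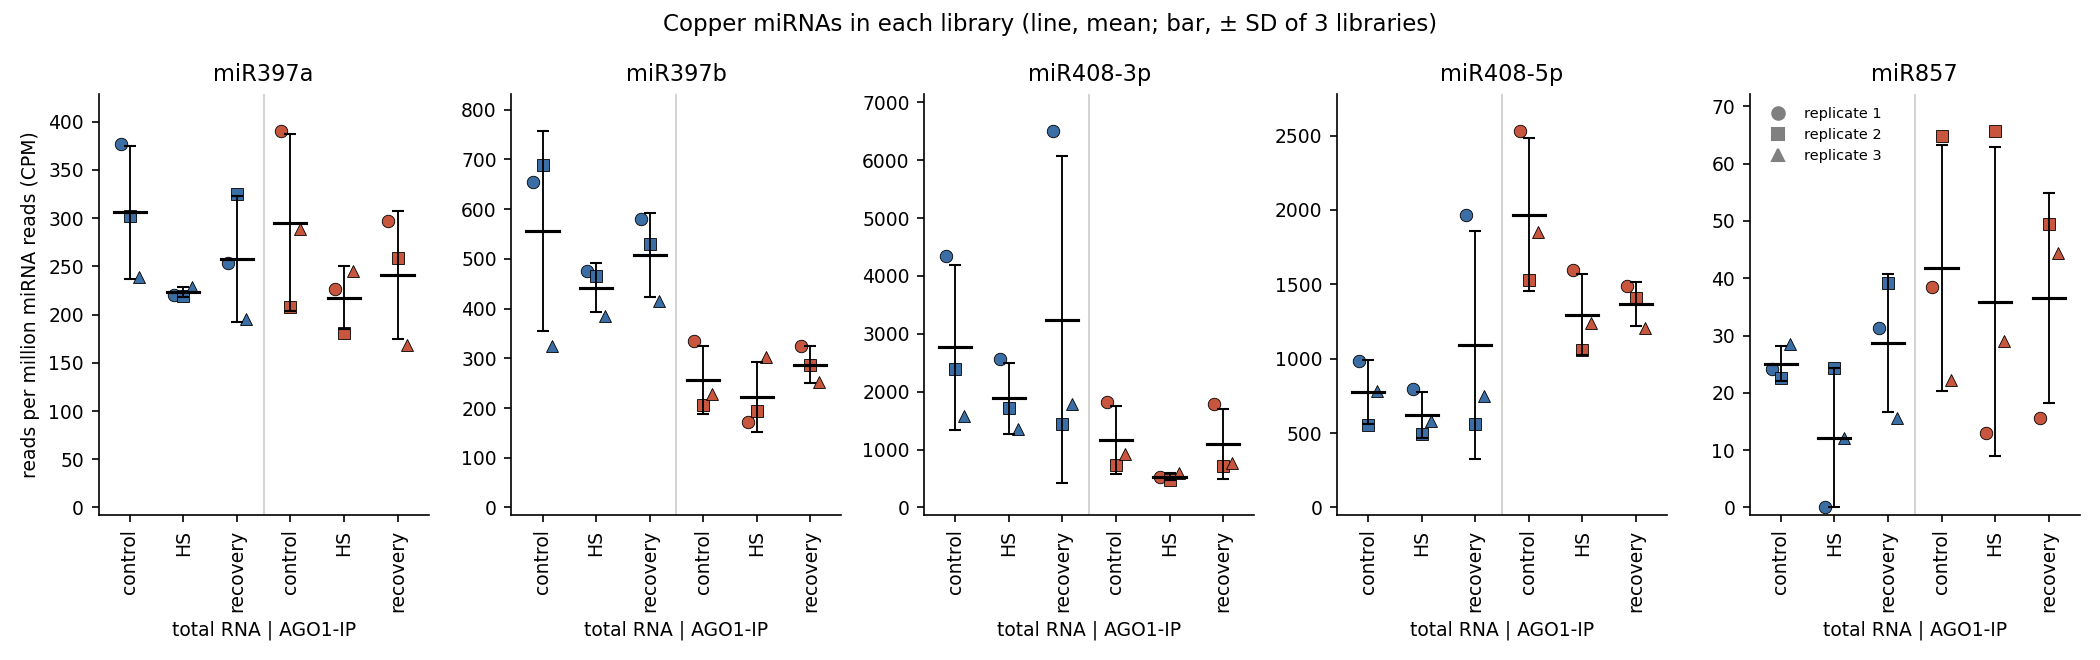
Level of each copper miRNA in every library, in CPM (linear axes that start at 0, a different range per panel); points are libraries shaped by replicate, lines are means and bars ± SD of 3 libraries. miR408-3p had a mean of 2766 CPM in total RNA control and 1159 CPM in AGO1-IP control, whereas miR408-5p stood at 776 and 1969 CPM.

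The ratio of the 2 arms within a library needs no scaling between libraries, since both arms are counted in the same reads. The log2 ratio of miR408-5p to miR408-3p was −2.14, −2.10 and −1.004 in total RNA control, −1.69, −1.81 and −1.23 in HS and −1.72, −1.36 and −1.26 in recovery. In AGO1-IP it was 0.47, 1.07 and 1.01 in control, 1.61, 1.14 and 1.04 in HS and −0.27, 0.96 and 0.66 in recovery. The lowest AGO1-IP library lay above the highest total RNA library. The mean difference was 2.44 on the log2 scale, a 5.44-fold shift towards miR408-5p (exact permutation test with the RNA kind permuted within condition, two-sided p = 0.00025, the smallest it can give, 0.00125 after Benjamini-Hochberg adjustment over 10 ratio comparisons, higher in 9 of 9 libraries). Leaving out any 1 library gave 2.36 to 2.57.

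The log2 ratio of miR397b to miR397a also differed between the RNA kinds. It was 0.80, 1.19 and 0.44 in total RNA control, 1.11, 1.08 and 0.75 in HS and 1.20, 0.70 and 1.09 in recovery. In AGO1-IP it was −0.22, −0.01 and −0.34 in control, −0.40, 0.09 and 0.30 in HS and 0.13, 0.14 and 0.58 in recovery. The mean of 0.93 in total RNA went to 0.03 in AGO1-IP, a difference of −0.90 (exact permutation test, two-sided p = 0.00025, adjusted p = 0.00125, n = 9 per RNA kind), although 1 AGO1-IP library lay within the range of total RNA. The pair differs by the single base G13U and has the same seed and first base. The cause of the difference in ratio was not tested, and how reads with a mismatch were counted is not given.

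**Figure D2:**
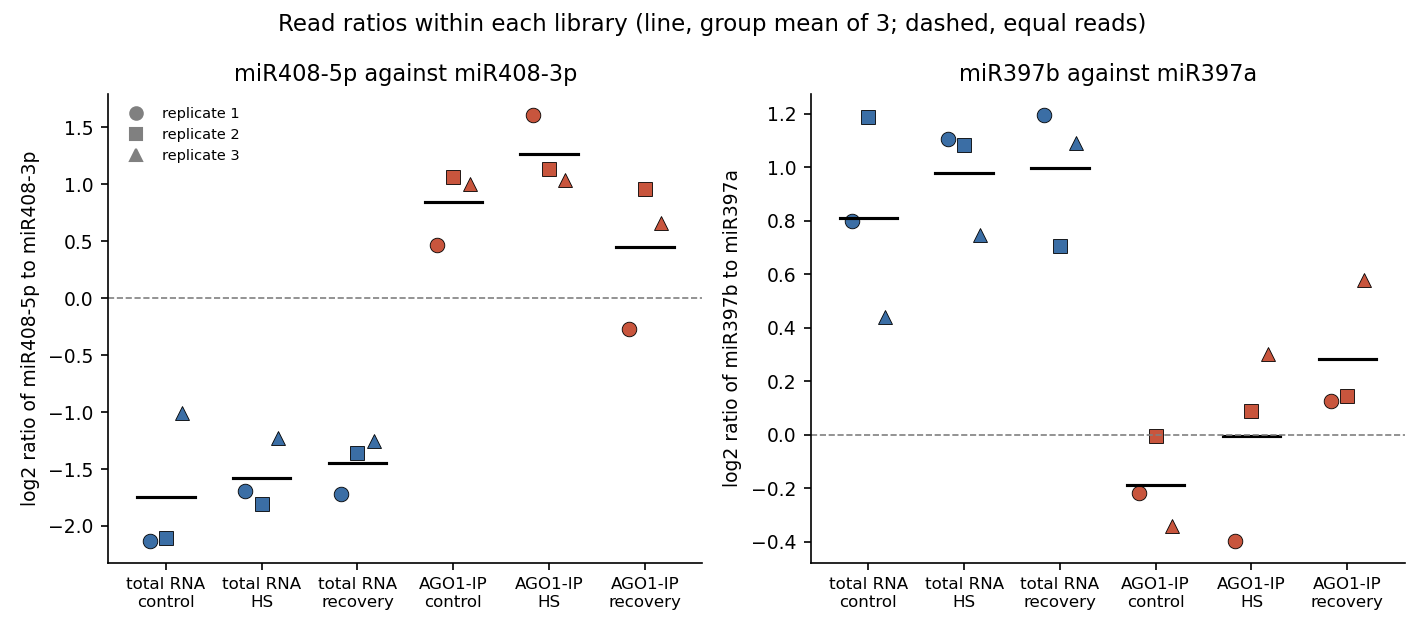
Log2 read ratio of miR408-5p to miR408-3p (left) and of miR397b to miR397a (right) in each library; points are libraries shaped by replicate, lines group means of 3, and the dashed line equal reads. The miR408 ratio averaged −1.59 in total RNA and 0.85 in AGO1-IP, and the miR397 ratio 0.93 and 0.03.

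A change of the more abundant arm was not particular to MIR408. Among 54 hairpins with both arms in the table (a mean of at least 10 counts per arm), the larger arm in AGO1-IP differed from that in total RNA in 11, or 20.4%, and MIR408 ranked 14th in the size of the shift towards the lower arm. The median hairpin moved the other way, by −2.36, that is towards the arm already larger in total RNA. In AGO1-IP both miR408 arms were kept near equality. Its absolute log2 ratio of 0.85 was the third closest to 0 of the 54, whose median was 6.38. The arm that gained in AGO1-IP began with U in 47 hairpins and with A in 4, namely miR408-5p, miR390a-5p, miR390b-5p and miR172b-3p. MIR408 was the only hairpin of the 11 whose gaining arm began with A, but both its arms do, so a gain of either would have counted. This comparison was added after the values were seen and has no test.

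**Figure D3:**
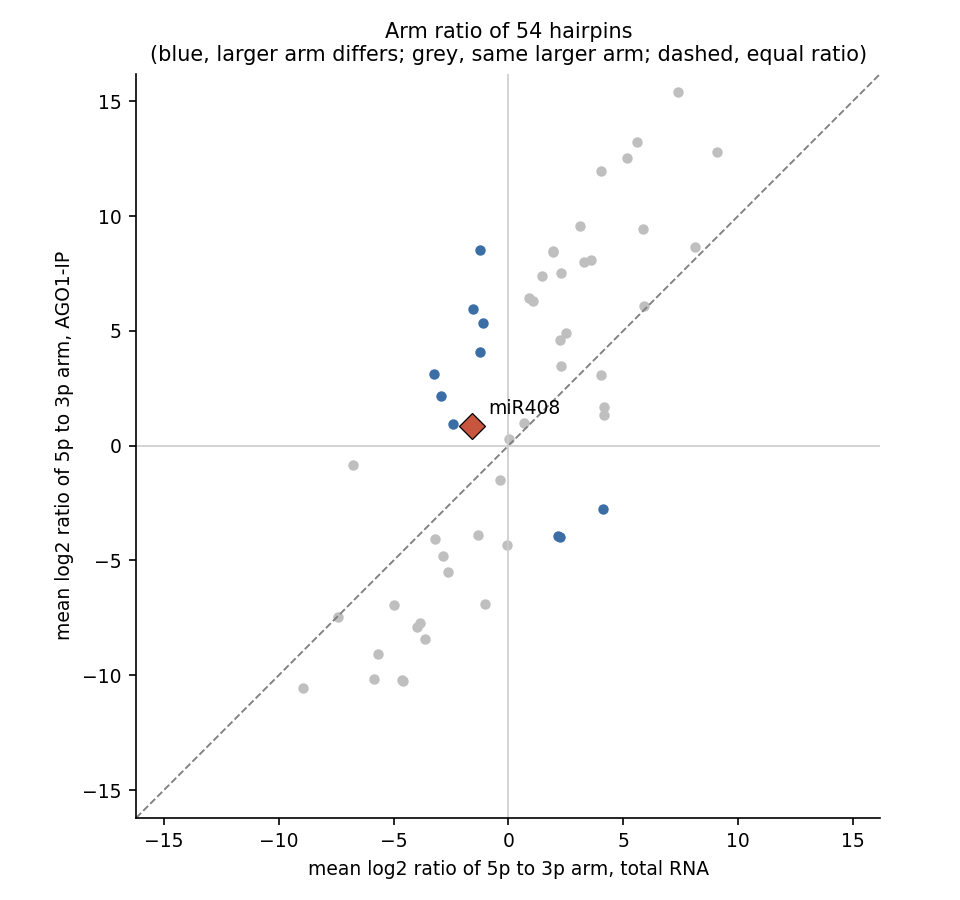
Mean log2 ratio of 5p to 3p arm in AGO1-IP against total RNA for 54 hairpins (means of 9 libraries each, 0.5 counts added); blue points are hairpins whose larger arm differs, and the dashed line is an equal ratio. MIR408 moved from −1.59 to 0.85 and lies closer to the horizontal line of equal arms in AGO1-IP than most hairpins, whose median absolute ratio there was 6.38.

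The AGO1-IP libraries were then compared with total RNA in each condition, across 269 miRNAs, with edgeR's quasi-likelihood test and TMM scaling factors. Of the 5 copper miRNAs, 3 were called higher in AGO1-IP in control, HS and recovery alike (miR397a, miR408-5p and miR857). The background was high, with 34.6% of all tested miRNAs called higher in control, 29.7% in HS and 31.6% in recovery. miR408-5p had log2 fold changes of 2.83 ± 0.44 in control (SE, n = 3 per group, adjusted p = 1.22e-05, edgeR), 2.65 ± 0.44 in HS and 1.79 ± 0.43 in recovery. The opposite arm miR408-3p was at 0.27 ± 0.46, −0.22 ± 0.46 and −0.28 ± 0.46 and was not called.

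The laccase guides miR397a and miR857 were called higher with smaller or less precise changes. miR397a had log2 fold changes of 1.45, 1.52 and 1.27 (SE 0.39 to 0.40), and miR397b 0.40, 0.55 and 0.57 (SE 0.38 to 0.39), not called. miR857 had 2.25 ± 0.79, 3.03 ± 0.85 and 1.93 ± 0.79, with few reads in total RNA behind each. Its call in control was lost without AGO1-IP control replicate 2 (1.70, adjusted p = 0.0878, edgeR). With a mean of at least 50 counts required, it was lost in control and in recovery (adjusted p = 0.054 and 0.0588, edgeR). Without AGO1-IP recovery replicate 1, the same 3 members were called in recovery. Without AGO1-IP recovery replicate 2 only miR408-5p was, without AGO1-IP recovery replicate 3 or total RNA recovery replicate 3 miR397a and miR408-5p were, and without total RNA recovery replicate 1 miR397b was called as well.

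For the members near the middle, the sign of these changes depended on the scaling factor. TMM factors were 1.49 to 1.88 in total RNA and 0.464 to 1.07 in AGO1-IP. With TMM the median miRNA was at 0.09 in control, with RLE scaling at −0.70 and with no factor at −1.39. Relative to the median of all tested miRNAs (TMM), miR408-5p was at 2.75 in control, 2.81 in HS and 1.96 in recovery, and with RLE scaling at 2.75 and 2.80 in control and HS. With TMM, miR857 was at 2.16, 3.18 and 2.09 relative to that median, miR397a at 1.36, 1.67 and 1.43, miR397b at 0.31, 0.70 and 0.73, and miR408-3p at 0.18, −0.07 and −0.11. With no factor, miR397a was at −0.05 and miR397b at −1.11 in control, against the direction with TMM. The calls of miR397a and miR857 were then lost in every condition, miR397b was called lower in control and HS, and miR408-3p was called lower in HS (−1.82) and recovery (−1.57). miR408-5p was still called higher in control (1.34) and HS (1.06) but not in recovery (0.33, adjusted p = 0.517, edgeR). With RLE scaling or DESeq2, miR408-5p was the 1 member called in control and in recovery, and all 3 were called in HS.

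The change from total RNA to AGO1-IP differed between miRNAs of different first base, and miR408-5p lay at the top of those with A. In control, 83 of 155 miRNAs beginning with U were called higher, with a median log2 fold change of 1.40. Of 56 beginning with A, 1 was called higher and 37 lower, with a median of −3.42, and the 1 was miR408-5p. miR408-5p had rank 1 and miR408-3p rank 5 of the 56 in control, in HS and in recovery. In HS 2 of the 56 were called higher and in recovery 1. miR397a lay close to the U median in control (1.45 against 1.40), miR857 above it and miR397b below. These are descriptions of the table, and guide and passenger arms were not separated within a first base. Rows of identical sequence are counted separately among the other miRNAs.

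**Figure D4:**
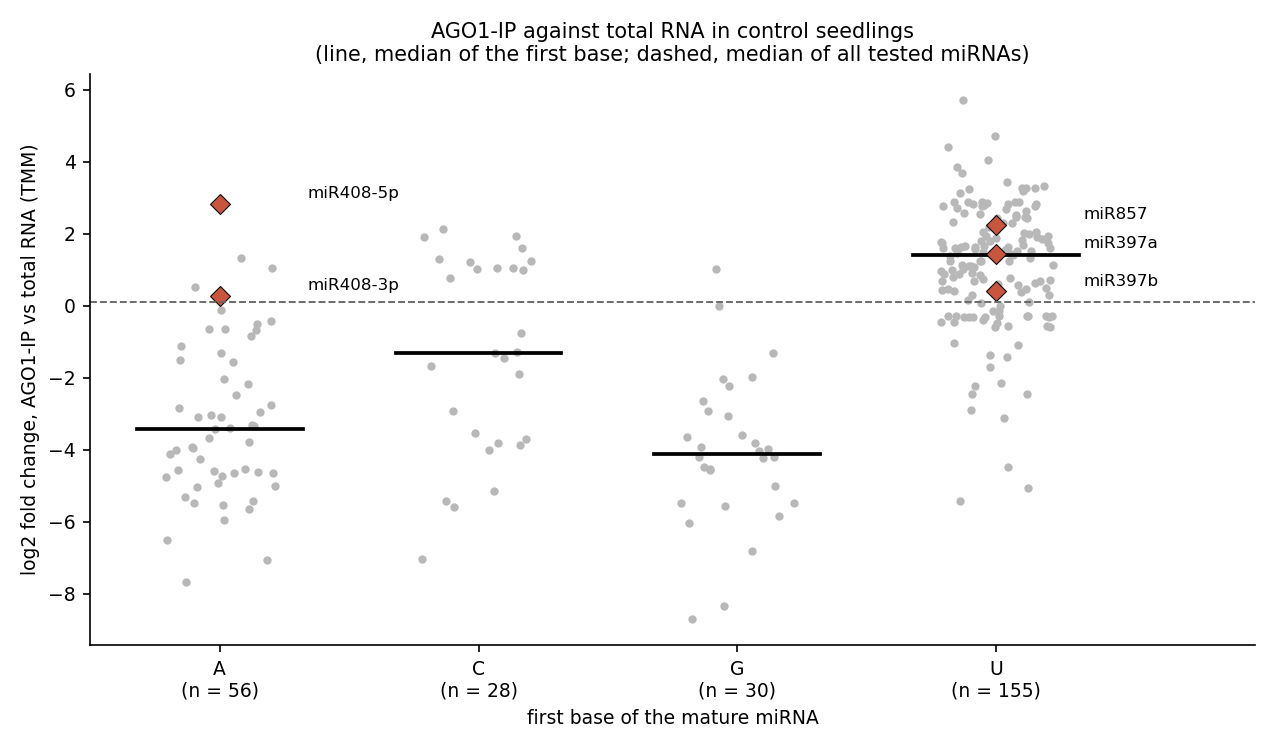
Log2 fold change of AGO1-IP against total RNA in control seedlings (edgeR, TMM) for 269 miRNAs by first base of the mature sequence; diamonds are the copper miRNAs, lines the median of each first base and the dashed line the median of all. miR408-5p at 2.83 is the highest of 56 miRNAs beginning with A, whose median is −3.42.

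After HS the estimates of all 5 copper miRNAs were below 0 in both RNA kinds in the main fits, but none passed the test. In AGO1-IP the median of all tested miRNAs was below 0 as well. In total RNA, HS against control called 0 of 5 copper miRNAs in edgeR, with 0% of 229 tested called (25 with an unadjusted p under 0.05, none of them a copper miRNA, and 1 of the 229 called by DESeq2, also not a copper miRNA). The log2 fold changes were −0.43 ± 0.32 for miR397a, −0.32 ± 0.35 for miR397b, −0.51 ± 0.53 for miR408-3p, −0.29 ± 0.43 for miR408-5p and −0.93 ± 0.78 for miR857 (SE, n = 3 per group). Their median was −0.43, against 0.01 over all tested miRNAs. miR397a was the 1 member whose HS libraries all lay below the controls, as 14% of the tested miRNAs did, and its 95% confidence interval ran from −1.14 to 0.29.

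In AGO1-IP, HS against control also called 0 of 5 copper miRNAs, with 1.86% of 215 tested called, all lower. miR408-3p had the largest estimate of the 5, at −1.03 ± 0.37 (95% interval −1.83 to −0.23). Its unadjusted p from edgeR was 0.0154 and its adjusted p 0.361. Of the 215 tested, 13 had an unadjusted p under 0.05, and miR408-3p was the 1 copper miRNA among them. All 3 HS libraries (481 to 602 CPM) lay below all 3 controls (729 to 1829), as in 7.91% of the tested miRNAs. Without AGO1-IP control replicate 1, the highest control, the change was −0.57. miR408-5p was at −0.51 ± 0.33, miR397a at −0.36 ± 0.31, miR857 at −0.21 ± 0.65 and miR397b at −0.17 ± 0.30. The median of the 5 was −0.36, against −0.11 over all tested miRNAs. By log2 fold change, miR397b stood at percentile 39.1 of the 215 and miR857 at 36.7. Each of these 2 turned positive in 3 of 9 fits with 1 library left out, and miR397b was at 0.0020 with RLE scaling.

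From HS to recovery the total RNA estimates of all 5 were above 0, and none passed the test. Recovery against HS in total RNA called 0 of 5 (0% of 229; 7 with an unadjusted p under 0.05, none a copper miRNA, and 0 by DESeq2), with log2 fold changes of 1.06 ± 0.78 for miR857, 0.71 ± 0.43 for miR408-5p, 0.68 ± 0.53 for miR408-3p, 0.14 ± 0.32 for miR397a and 0.13 ± 0.35 for miR397b. This comparison shares the HS libraries with HS against control, so the opposite signs are not independent. Without total RNA recovery replicate 1, the values of the miR408 arms moved to 0.07 for miR408-5p and −0.22 for miR408-3p. In AGO1-IP, recovery against HS called 0 of 5 (0.465% of 215 called), and 12 of the 215 had an unadjusted p under 0.05. The 1 copper miRNA among them was miR408-3p, at 0.81 ± 0.37 (unadjusted p = 0.0472, adjusted p = 0.803, edgeR). Its 3 recovery libraries lay above the 3 HS libraries, as in 4.65% of the tested miRNAs. Without AGO1-IP recovery replicate 1 the change was 0.53.

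Recovery against control called 0 of 5 in total RNA (0% of 229; 4 with an unadjusted p under 0.05, none a copper miRNA, and 0 by DESeq2) and 0 of 5 in AGO1-IP (0.465% of 215). The total RNA estimates ran from −0.28 to 0.42 and those of AGO1-IP from −0.62 to 0.07. The lowest was miR408-5p in AGO1-IP, at −0.62 ± 0.33 (95% interval −1.32 to 0.09), and at −0.34 without AGO1-IP recovery replicate 1. By CPM its recovery libraries (1205 to 1488) lay below the controls (1527 to 2530.1), as in 5.12% of the tested miRNAs, but with TMM scaling they overlapped.

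**Figure D5:**
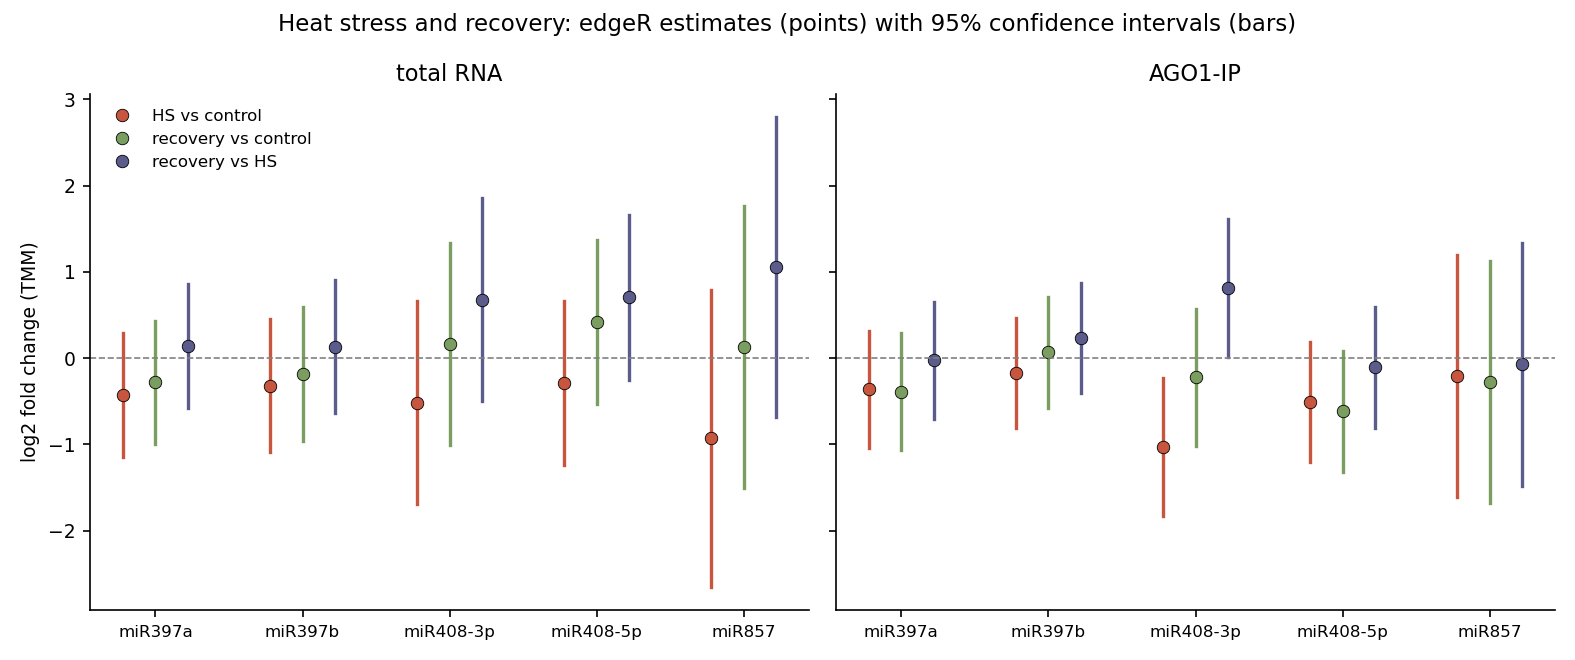
Log2 fold changes of the copper miRNAs for 3 comparisons between conditions in total RNA (left) and AGO1-IP (right); points are edgeR estimates with TMM scaling and bars 95% confidence intervals. The intervals of HS against control cross 0 except that of miR408-3p in AGO1-IP, from −1.83 to −0.23, whose adjusted p was 0.361. The interval of miR408-3p for recovery against HS in AGO1-IP, from 0.012 to 1.61, also excludes 0, with an adjusted p of 0.803.

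A change in loading, that is a difference of the AGO1-IP to total RNA change between conditions, was called for 0 of 5 copper miRNAs in HS (0.372% of 269) and 0 of 5 in recovery (0% of 269; 6 with an unadjusted p under 0.05 in edgeR, none a copper miRNA, and 0 by DESeq2). miR408-5p in recovery was at −1.04 ± 0.59 (95% interval −2.26 to 0.17, unadjusted p = 0.0896, adjusted p = 0.991, edgeR). The within-library ratios were also compared between conditions. The miR408-5p to miR408-3p ratio changed in HS by 0.17 in total RNA and 0.42 in AGO1-IP, and in recovery by 0.30 and −0.40, with exact permutation p from 0.2 to 0.6. The −0.40 rested on AGO1-IP recovery replicate 1, without which it was −0.035 (exact permutation p = 0.9). The miR397b to miR397a ratio in AGO1-IP was higher in all 3 recovery libraries than in all 3 controls, by 0.47 (exact permutation p = 0.1, the smallest that 3 against 3 can give, adjusted p = 0.333).

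The other copper miRNA family, miR398, targets copper/zinc superoxide dismutases. Of its 6 rows, none was called between conditions in total RNA or AGO1-IP, where 5 of the 6 were tested. Its 3p guides, which begin with U, and its 5p arms, which begin with A, parted in AGO1-IP. In control and in HS all 3 of the 3p rows were called higher and all 3 of the 5p rows lower, and in recovery 1 was called higher and 3 lower. The miR398b and miR398c rows share their whole sequence in each arm, so these are not 3 separate sequences. The 3p calls rest on TMM scaling, since in control mean CPM miR398a-3p went from 159 to 175 and miR398c-3p from 756 to 716. miR398b-5p went from 2265 ± 243 CPM in total RNA control to 32.9 ± 6.6 in AGO1-IP control (SD, n = 3), whereas miR398b-3p was at 702 ± 333 and 701 ± 195. The 5p arms of miR398 and miR408 thus lay on opposite sides, although both begin with A.

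Across the 18 libraries, log2 CPM was centred within total RNA and within AGO1-IP. The seed partners miR397a and miR397b then had a Pearson r of 0.64 and the miR408 arms one of 0.66. Without AGO1-IP recovery replicate 1 these were 0.58 and 0.80. Over all pairs of 269 miRNAs the median r was 0.06, with quartiles of −0.19 and 0.33. The cluster neighbours MIR857 and MIR397b gave 0.42, and miR408-3p with miR857 −0.02. Without AGO1-IP recovery replicate 1 they gave 0.30 and 0.04. The points share libraries and depth, and total RNA recovery replicate 1 was not left out, so r is a description.

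The miRNAs most like each member by this measure were fixed at 3 per member. miR408-3p was closest to miR399d (0.86), miR399b (0.83) and miR399c-3p (0.83), guides of the phosphate starvation response, of which the last 2 share their sequence. Its closest partners kept r of 0.86 to 0.87 without AGO1-IP recovery replicate 1. Total RNA recovery replicate 1, the highest library of miR408-3p, was not left out. miR408-5p was closest to the copper miRNA miR398a-3p (0.76) and then to miR162b-3p and miR162a-3p (0.71 and 0.69), which share a sequence and target DICER-LIKE 1. miR857 was closest to miR403-5p (0.85), miR781b (0.80) and miR862-5p (0.79). miR397a was closest to miR5024-3p (0.73), with miR3440b-3p and miR396b-5p at 0.55 and 0.54. miR397b was closest to miR847 (0.66), miR167d (0.60) and miR160a-5p (0.57). Without AGO1-IP recovery replicate 1, the partners of miR408-5p were at 0.61 to 0.71 and those of miR857 at 0.75 to 0.84. Those of miR397a were then at 0.45 to 0.67 and those of miR397b at 0.48 to 0.59.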

How the data were processed

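Small RNA libraries were made by the authors with the RealSeq v2 kit from 100 ng RNA and 15 PCR cycles. Reads were trimmed with Cutadapt 2.9, kept at 18 to 34 nt and mapped with Bowtie2 to TAIR10. The authors deposited raw read counts per miRNA and per TAS siRNA. How reads that map more than once, mismatches and strand were treated is not given in the sources used here. Counts were tested with edgeR 4.0.16 (robust quasi-likelihood F-test, filterByExpr, TMM, Benjamini-Hochberg adjusted p under 0.05) in R 4.3.3, in 1 fit for total RNA, 1 for AGO1-IP and 1 for all 18 libraries. DESeq2 1.42.0, other scalings, filters, library sizes, a replicate block and leaving out each library were tried. Ratios were tested by exact permutation. Scripts were tested on simulated data. Hairpins were folded with RNAfold (ViennaRNA 2.7.2). CPM used miRNA reads only, and likeness used TMM-scaled log2(CPM + 2).

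The members and lists were chosen with earlier results of these data known. Named miRNAs were the 5 members, miR398, miR390a-5p and miR168a-5p, and the 3 most alike per member. Replicate numbers were marked as pairing the libraries where every correlation of deviations was above 0.1, and no test was chosen by this mark. In total RNA this held for recovery against control and recovery against HS (0.274 to 0.828). It also held for recovery against HS in AGO1-IP (0.410 to 0.593) and for AGO1-IP against total RNA in control (0.120 to 0.311). HS against control in total RNA missed it in replicate 2 (0.004, against 0.623 and 0.759 in replicates 1 and 3). AGO1-IP against total RNA missed it in HS (0.003 to 0.113) and in recovery (0.046 to 0.148). Within AGO1-IP, HS against control (0.087 in replicate 1) and recovery against control (0.035 in replicate 1) missed it too. On the first principal component of total RNA (58.0% of the variance), replicate 3 stood apart in every condition (11.2 to 11.4, against −11.4 to 1.55). The main fits have no replicate block, so spread between replicate numbers enters their error. The study describes its total RNA and AGO1-IP libraries as made from the same biological replicates, and its methods do not say which samples share one. Annotated names of all 422 rows matched RefSeq.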

Additional observations from a re-analysis of the deposited data

How the results depend on the processing

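The 2 ratios between AGO1-IP and total RNA stayed past the threshold under every alternative run, and the counts of 0 members called between conditions and for loading stayed at 0. With the replicate block the counts of members called stayed at 3 for AGO1-IP against total RNA and 0 elsewhere, and the paired exact sign-flip test gave p = 0.00391 for both ratios between RNA kinds. That sign-flip test pairs libraries by replicate number in every condition, although the mark of pairing between RNA kinds held only in control. AGO1-IP against total RNA depended on the scaling. The members called went from 3 to 1 with RLE scaling and with DESeq2 in control and recovery, and to 1 in recovery with only the groups compared, the 1 being miR408-5p each time. With no factor and with TAS reads in the library size, the 1 called in recovery was miR408-3p, called lower (−1.57 and −1.51, adjusted p = 0.0168 and 0.025, edgeR), and miR408-5p was not called (0.33 and 0.39, adjusted p = 0.517 and 0.452). Leaving out each library gave 1 (without AGO1-IP recovery replicate 2) to 4 in recovery. With RLE scaling, miR397b was at −0.45, −0.051 and −0.0090 in control, HS and recovery and miR408-3p at −0.56 in control, and DESeq2 gave −0.45, −0.051, −0.0085 and −0.56. With no factor, miR397a was at −0.048, −0.036 and −0.094, miR397b at −1.11, −0.99 and −0.82 and miR408-3p at −1.25 in control. With TAS reads in the library size, miR397b was at −1.06, −0.91 and −0.73 and miR408-3p at −1.20 in control. Under both settings miR397b was called lower in control (adjusted p = 0.0143 and 0.0194) and HS (0.0234 and 0.038), miR408-3p was called lower in HS (−1.82 and −1.74), and miR397a and miR857 were called in no condition. With a mean of at least 50 counts, miR397b was at −0.029 and miR408-3p at −0.17 in control, and miR857 was no longer called in control and recovery. Without miR156 and miR157, miR408-3p was at 0.37 in HS and 0.52 in recovery, and miR397b was called higher in both. The cause was not tested, beyond the shift of the median of all miRNAs with each scaling.

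Leaving out each library moved miR408-3p from −0.24 to 0.89 in control, −0.32 to 0.12 in HS and −0.57 to 1.04 in recovery for AGO1-IP against total RNA, and from −0.22 to 1.03 for recovery against HS in total RNA, where miR397a ran from −0.089 to 0.31. For HS against control in AGO1-IP, miR397b ran from −0.19 to 0.055 and miR857 from −0.96 to 0.46, and miR397b was at 0.0020 with RLE scaling and 0.00040 with DESeq2. The HS change in total RNA ran from −0.022 to 0.54 for the miR408 ratio and from −0.013 to 0.36 for the miR397 ratio. The 22 fold changes given only as ranges or not printed had the other sign in 93 of 498 alternatives, and none of these was a call. Depth limits miR857 in total RNA, where a library held at most 28 reads.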
